A study of Mus musculus with 6 samples.

Results

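The genes described here are the oxygen-binding protein myoglobin (Mb), the 3 hypoxia-inducible factor alpha subunits (Hif1a, Epas1 and Hif3a), the 3 prolyl hydroxylases that sense oxygen (Egln1, Egln2 and Egln3), the von Hippel-Lindau gene Vhl and the vascular growth factors Vegfa and Vegfb. They were taken by symbol through their Ensembl gene IDs, and all 10 were found among the 41025 genes of the deposited tables. The samples were tibialis anterior muscle, from the front of the lower leg, of C57BL/6 mice aged 8 weeks. Of the 6 RNA-seq libraries, 3 carried the label wild type (WT1, WT2 and WT3) and 3 the label Mettl21e knockout (KO1, KO2 and KO3). Mettl21e encodes a muscle methyltransferase, and the labels do not describe the deleted part, a Cre driver or whether each library came from a mouse of its own. The p-values therefore measure the spread between these libraries, which may be technical.

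Myoglobin holds oxygen inside muscle fibres and eases its passage to mitochondria, and oxidative fibres are known to contain more of it than glycolytic ones. In cells with enough oxygen, Egln enzymes hydroxylate the alpha subunits, the Vhl protein then binds them, and they are broken down by the proteasome. When oxygen is short, the alpha subunits escape, pair with the Arnt protein and switch on genes such as Vegfa. This control acts mainly on protein, so transcript levels of the alpha subunits do not report their activity.

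Values are FPKM, the fragments on a gene scaled by its length in kilobases and by the total of the library. The library totals recovered from the values were 8476591 to 10856669 fragments, which put a single fragment on 1 kb at 0.0921 to 0.118 FPKM. Markers of muscle fibres were present in every library, with the skeletal actin gene Acta1 between 13695 and 19584 FPKM. The targeted transcript did not tell the labels apart. Mettl21e was at 2.46, 0.309 and 1.23 FPKM in WT1, WT2 and WT3 and at 1.64, 1.45 and 1.88 FPKM in KO1, KO2 and KO3 (exact two-sided permutation p = 0.7, where 0.1 is the smallest possible). It was thus not lower under the knockout label, and every direction given here compares labels, with knockout set against wild type. WT2 held 8 fragments of it, and the difference of the means changed sign without WT2 (from 0.323 to -0.189 FPKM).

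None of these genes passed the test between the labels. The test was limma on log2(FPKM + 1) over the 11383 genes whose mean FPKM reached 1, with p-values adjusted over all of them and a threshold of 0.05. Of the 10 genes, 9 were tested and Hif3a was below the filter. Of the 9, 0 passed (0.0% of all tested genes passed), and 7 were lower and 2 higher under the knockout label, where 56.7% of all tested genes were lower. The median log2 difference was -0.10, against -0.02 over all tested genes. At an unadjusted p under 0.05 there was 1 gene, Mb, where 4.59% of all tested genes reached that level, and Mb was also the 1 gene whose labels did not overlap, where 9.48% of all tested genes did not. With the knockout label lower, as for Mb, these shares were 3.31% and 5.64%, and with it higher 1.28% and 3.84%. Mb stayed under that level in 6 of 16 alternatives and missed it in 10, among them 5 of the 6 that leave out a library, while Vegfb reached it in 2 and Egln3 in 1 of 16. The 95% intervals of the 9 differences reached from 0.711-fold to 1.41-fold of FPKM + 1 at the outermost, a scale that understates the change of genes at low FPKM.

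**Figure D1:**
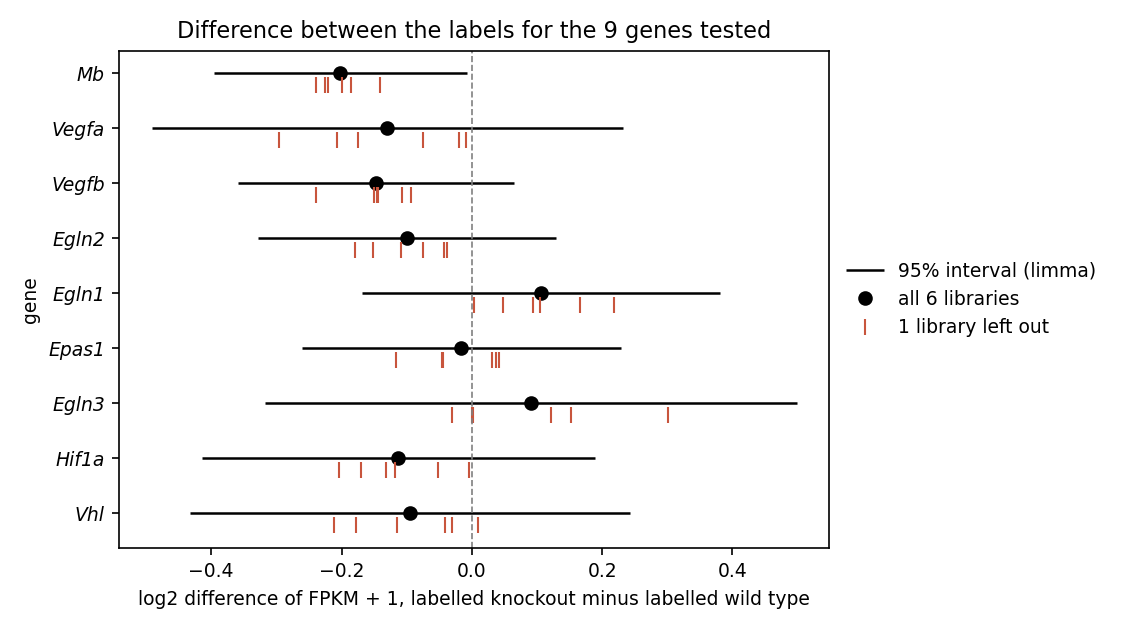
Log2 difference of FPKM + 1, labelled knockout minus labelled wild type (x axis), for the 9 genes tested (y axis). Black points are the values from all 6 libraries, black lines their 95% intervals from limma, and red ticks the values with 1 library left out. The interval of Mb ends just below 0 and the other 8 intervals cross 0.

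Myoglobin was by far the most abundant of the genes. Mb (ENSMUSG00000018893, chromosome 15, 77015487 to 77050670 on the minus strand in mm10) was at 6689, 6572 and 6376 FPKM in WT1, WT2 and WT3. In KO1, KO2 and KO3 it was at 5989.7, 5881 and 5232 FPKM. Every library labelled knockout lay below every library labelled wild type, and the gap between the nearest of them, 5989.7 and 6376, was smaller than the distance of KO3 from the other knockout libraries. The mean was 6546 ± 158 FPKM under the wild-type label and 5701 ± 410.0 FPKM under the knockout label (SD, n = 3 each), 12.9% lower. The log2 difference was -0.20 (SE 0.08, 95% interval -0.40 to -0.01) with limma adjusted p = 0.988 (0.379 to 1.0 over the alternatives, and 0.0430 before adjustment), so it is not called. Without KO3 the difference was -0.14, and under quantile normalization it was -0.10. Mb ranked 19 among all genes by mean FPKM and took 0.547% to 0.700% of the gene fragments of a library, from 46253 to 75013 fragments, so counting error was small beside the spread between libraries. An antisense gene, Gm49540, shares 412 exon bases with Mb and the gene Apol6 shares 64, both on the other strand. How reads were assigned to strands is not stated in the sources used here, so reads from them cannot be told apart from those of Mb.

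Markers of slow and oxidative fibres were lower along with Mb. All 11 genes of that list (Myh7, Myh2, Myl2, Myl3, Tnnt1, Tnni1, Tnnc1, Atp2a2, Tpm3, Csrp3 and Ankrd2) were lower under the knockout label, with a median log2 difference of -1.27, 7 at an unadjusted p under 0.05 (63.6%, against 4.59% of all tested genes) and 0 past the adjusted test. Of all tested genes 56.7% were lower. Their summed level was 1758, 3655 and 2802 FPKM in WT1, WT2 and WT3 and 1756, 1619.8 and 649.8 FPKM in KO1, KO2 and KO3. The lowest sum and the lowest Mb were both in KO3. WT1 was the highest for Mb but lay next to KO1 for the marker sum. The labels did not overlap for 4 of the 11 markers (36.4%, against 9.48% of all tested genes), and the markers did not move alike. Tnnc1 was at 3.28 FPKM in WT3, below its 3.93 to 6.44 FPKM under the knockout label. Csrp3 was at 105 FPKM in WT1, within its 31.4 to 200 FPKM under the knockout label. Myh2, with a mean of 1018 FPKM, weighed most in the sum. Of the markers of other cell types, 6 of 6 for fibroblasts, 5 of 5 tested for macrophages and leukocytes and 4 of 4 for adipocytes were also lower, against 5 of 9 for mural cells and 2 of 5 for Schwann cells, and 0 passed the test. The sums of the first 3 lists overlapped between the labels, at 209 to 440 against 218 to 302 FPKM for fibroblasts (wild-type against knockout label), 31.9 to 76.0 against 30.6 to 39.4 for macrophages and leukocytes, and 20.4 to 51.6 against 13.8 to 22.04 for adipocytes. An unadjusted p under 0.05 was reached by 2 of 4 adipocyte markers (Cfd and Retn, both lower). It was also reached by 1 of 5 tested macrophage and leukocyte markers (Lyz2, lower). For fibroblasts, mural cells and Schwann cells 0 reached it. The labels did not overlap for Cfd, and for the mural cell marker Abcc9, which was higher under the knockout label. A share above 4.59% was thus not limited to the fibre list, though these lists are short. The fibre list was chosen with earlier results of these libraries known, and the part of these fibres and cells in the difference of Mb was not tested. The 10 skeletal muscle fibre markers summed to 72051 to 77727 FPKM under the wild-type label and 70950.1 to 74132 FPKM under the knockout label. Of these markers 7 were higher and 3 lower under the knockout label (median log2 difference 0.049), and 0 passed. Tnnt3, Mylpf, Myh4, Myh1, Pvalb and Actn3 in that list are genes of fast fibres, so its sum is not neutral to fibre type. Myh1 was the 1 marker of that list whose labels did not overlap. It was at 1763 to 1881 FPKM under the wild-type label and at 1977 to 2753 FPKM under the knockout label (limma unadjusted p = 0.0213, adjusted p = 0.988). In bulk muscle, fewer cells or fibres of a type and less RNA per cell cannot be told apart.

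**Figure D2:**
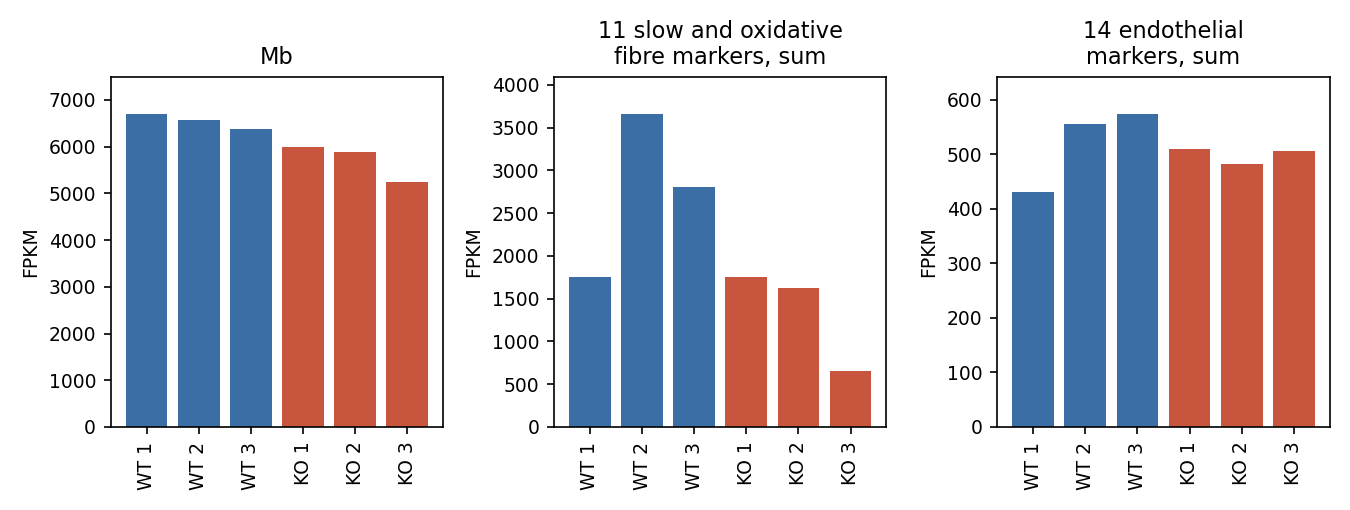
FPKM per library (y axes, from 0) of Mb, of the sum of 11 slow and oxidative fibre markers and of the sum of 14 endothelial markers, for the libraries labelled wild type (WT, blue) and knockout (KO, red). Mb lay between 5232 and 6689 FPKM, while the fibre marker sum ranged from 649.8 to 3655 FPKM.

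Bases before an annotated start of Mb are shown because it was the gene whose labels did not overlap. The stretch, chr15:77022788-77023037 on the minus strand (RefSeq promoter table, build GRCm38.p6), lies before a start inside the annotated span of the gene and is read 5′ to 3′. Capitals mark matches on either strand to CAGCTG, a form of the E-box bound by myogenic factors, and to CCACCCC, letters of the CCAC box known from myoglobin promoters.
Mb: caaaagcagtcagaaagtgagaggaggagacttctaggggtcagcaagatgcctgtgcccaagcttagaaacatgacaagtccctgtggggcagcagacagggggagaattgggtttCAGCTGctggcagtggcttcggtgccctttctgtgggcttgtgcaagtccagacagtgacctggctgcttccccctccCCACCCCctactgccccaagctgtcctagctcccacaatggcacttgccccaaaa
It holds 1 match to each, and no match to ACGTG or to GCGTG, the core letters of the hypoxia response element. Over all 32851 promoter windows of 300 bases in the table, from 250 before to 50 after a start, 16.3% hold CAGCTG, 15.1% hold CCACCCC and 43.8% hold ACGTG or GCGTG on either strand. A match describes letters only. The window before the outermost annotated start of Mb, chr15:77050671-77050918, holds 0 matches to any of the 4 motifs and is not printed. The table has 13 windows for 9 of the genes, and 8 of the 13 windows hold ACGTG or GCGTG. Counted by gene, 7 of the 9 have at least 1 such window, a measure unlike the share of windows above.

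Among the alpha subunits, Epas1 transcripts (encoding HIF-2 alpha) were the most abundant and Hif3a transcripts were nearly undetected. Epas1 (chromosome 17, 86753700 to 86833410, plus strand) measured 49.1, 55.5 and 49.1 FPKM in WT1, WT2 and WT3 and 58.3, 46.8 and 47.3 FPKM in KO1, KO2 and KO3. KO1 was the highest and KO2 the lowest of the 6, so the labels overlapped throughout. The mean was 51.2 ± 3.69 and 50.8 ± 6.47 FPKM (SD, n = 3 each), with a log2 difference of -0.02 (95% interval -0.26 to 0.23) whose sign turned under median centring (0.031) and quantile normalization (0.0036). Epas1 is known to be rich in the cells lining blood vessels. Endothelial markers summed to 431, 556 and 573 FPKM in WT1, WT2 and WT3 and to 509, 483 and 506 FPKM in KO1, KO2 and KO3, so their lowest and highest sums were both under the wild-type label. Of the 14 endothelial markers 12 were lower and 2 higher under the knockout label (85.7% lower, against 56.7% of all tested genes, median log2 difference -0.02), 0 passed, and none was at 0 in a library.

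Hif1a, the alpha subunit found in most tissues (chromosome 12, 73901375 to 73947530, plus strand), measured 7.22, 7.84 and 8.68 FPKM in WT1, WT2 and WT3. In KO1, KO2 and KO3 it was at 6.07, 7.44 and 8.33 FPKM. Library 1 was the lowest and library 3 the highest under each label, and the labels overlapped. The log2 difference was -0.11 (95% interval -0.41 to 0.19), and it was -0.0038 without KO1 and -0.20 without KO3. The antisense gene Gm15283 shares 330 exon bases with Hif1a and the gene Gm49321 shares 148 on its own strand, so its level is uncertain. Hif3a, whose protein has forms that restrain the other alpha subunits, gave 3, 4 and 3 fragments in WT1, WT2 and WT3 and 4, 10 and 2 in KO1, KO2 and KO3. These counts correspond to 0.118, 0.156 and 0.144 FPKM and to 0.175, 0.406 and 0.09998 FPKM. KO2 was the highest, and its exact Poisson interval (95%, counting error only) of 4.80 to 18.4 fragments overlapped that of WT2, 1.09 to 10.2 fragments. No difference of Hif3a was detectable at this depth, and with no filter on low values its log2 difference of FPKM + 1 was 0.10 (limma adjusted p = 0.913 over 23559 genes), a scale that compresses values this low. The mean was 0.139 ± 0.0193 FPKM under the wild-type label and 0.227 ± 0.160 FPKM under the knockout label (SD, n = 3 each). The Hif3a to Hif1a ratio differed by 0.60 in log2, the widest of 5 ratios tested (exact two-sided permutation p = 0.4, adjusted p = 0.9), and by 0.083 without KO2 and 1.18 without KO3. The limma adjusted p was 0.997 for Epas1 and 0.988 for each of the other tested genes.

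Within each library Epas1 stood above Hif1a by 5.66-fold to 9.60-fold in FPKM. The ratio was 6.80, 7.08 and 5.66 in WT1, WT2 and WT3 and 9.60, 6.30 and 5.68 in KO1, KO2 and KO3. Only KO1, with the highest Epas1 and the lowest Hif1a, lay above the range of the wild-type label. The log2 ratio differed by 0.11 between the labels (exact two-sided permutation p = 0.8, adjusted p = 0.9 over 5 ratios). Epas1 made up 84.8% to 90.3% of the summed FPKM of the alpha subunits, Hif1a 9.41% to 14.99% and Hif3a at most 0.743%.

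Of the oxygen-sensing prolyl hydroxylases, Egln2 and Egln1 were present at similar levels and Egln3 at a lower one. Egln1, the main HIF hydroxylase in most cells (PHD2, chromosome 8, 124908587 to 124949324, minus strand), measured 66.3, 56.2 and 60.8 FPKM in WT1, WT2 and WT3. It was at 75.7, 56.03 and 66.7 FPKM in KO1, KO2 and KO3. KO1 was the highest, KO2 lay just below the lowest wild-type library, and the log2 difference was 0.11 (95% interval -0.17 to 0.38), which was 0.0040 without KO1 and 0.22 without KO2. Egln2 (PHD1, chromosome 7, 27158658 to 27166802, minus strand) measured 77.0, 93.2 and 89.2 FPKM in WT1, WT2 and WT3 and 86.5, 81.4 and 73.7 FPKM in KO1, KO2 and KO3. Its highest library was labelled wild type and its lowest knockout, but WT1 lay among the knockout values. The log2 difference was -0.10 (95% interval -0.33 to 0.13), and it was -0.18 without WT1, -0.15 without KO1, -0.038 without KO3 and -0.043 without WT2. Cyp2t4 on the other strand shares 11 exon bases with Egln2.

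Egln3 (PHD3, known to be strongly induced by HIF in many cells, chromosome 12, 54178981 to 54203860, minus strand) had the widest spread over the libraries of the 9 tested. It was at 16.4, 15.6 and 25.3 FPKM in WT1, WT2 and WT3 and at 19.1, 22.8 and 18.3 FPKM in KO1, KO2 and KO3. The wild-type libraries thus held both the lowest values and the highest, with the knockout libraries between them. The log2 difference was 0.09 (95% interval -0.32 to 0.50). It was 0.30 without WT3 and -0.031 without WT2. The coefficient of variation over the 6 libraries was 19.3%, against 8.81% for Mb, and at least 412 fragments lay behind each value.

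Bases before the Egln genes are shown because their windows of 300 bases carry between 1 and 6 matches to the hypoxia response element core. Egln1 and Egln3 are also known HIF targets. The stretches, read 5′ to 3′ from the same table and ending before the first annotated exon, are chr8:124949325-124949504, chr7:27166803-27167052 and chr12:54203875-54204124, all on the minus strand. Capitals mark matches on either strand to the same 4 motifs as for Mb and the response element.
Egln1: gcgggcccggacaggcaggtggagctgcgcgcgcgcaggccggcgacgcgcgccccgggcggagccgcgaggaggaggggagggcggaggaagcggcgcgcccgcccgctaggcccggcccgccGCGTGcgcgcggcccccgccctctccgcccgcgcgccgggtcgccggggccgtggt
Egln2: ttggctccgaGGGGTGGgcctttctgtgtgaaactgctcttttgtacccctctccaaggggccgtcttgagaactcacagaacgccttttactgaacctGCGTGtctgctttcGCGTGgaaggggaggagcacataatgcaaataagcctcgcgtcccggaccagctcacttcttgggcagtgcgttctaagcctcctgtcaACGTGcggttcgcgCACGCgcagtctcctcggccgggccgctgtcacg
Egln3: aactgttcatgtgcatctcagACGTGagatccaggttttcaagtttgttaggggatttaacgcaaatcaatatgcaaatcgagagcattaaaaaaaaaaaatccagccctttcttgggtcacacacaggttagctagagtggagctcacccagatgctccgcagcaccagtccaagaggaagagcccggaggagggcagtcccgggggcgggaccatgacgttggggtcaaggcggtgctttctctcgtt
In the full windows of 300 bases, ACGTG or GCGTG matched 2 times for Egln1, 6 times for Egln2 and 1 time for Egln3, counting both strands, so that the palindrome CACGTG counts 2 times. Matches in a window that are missing from the printed stretch lie in its exon part or across its edge. Such matches were not particular to the Egln genes. The window of Hif1a held 3, those of Hif3a and Vegfb 2 each and a Vegfa window also 2, and these are not printed. Nothing about HIF binding follows from these letters.

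Within the family, Egln3 was the lowest in every library, while the order of Egln1 and Egln2 turned with the gene length used. Egln2 made up 46.5% to 56.5% of their summed FPKM, Egln1 34.0% to 42.04% and Egln3 9.46% to 14.4%. Per longest annotated transcript, Egln1 made up 44.02% to 52.2%, Egln2 33.3% to 42.7% and Egln3 12.7% to 18.7%. Egln2 was above Egln1 in 6 of 6 libraries in FPKM, by 1.10-fold to 1.66-fold. The Egln2 to Egln1 ratio was 1.16, 1.66 and 1.47 in WT1, WT2 and WT3 and 1.14, 1.45 and 1.10 in KO1, KO2 and KO3. It overlapped between the labels (log2 difference -0.21, or -0.35 without WT1, -0.33 without KO2, -0.13 without KO3 and -0.092 without WT2, exact two-sided permutation p = 0.2, adjusted p = 0.9), as did the Egln3 to Egln1 ratio (-0.01, p = 0.9).

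Vhl, which encodes the subunit that recognises hydroxylated alpha subunits (chromosome 6, 113623959 to 113631633, plus strand), measured 7.55, 5.59 and 6.20 FPKM in WT1, WT2 and WT3. In KO1, KO2 and KO3 it was at 5.44, 5.34 and 7.16 FPKM. The highest value was in WT1 and the next in KO3, and the other 4 lay close together. Between 54 and 83 fragments stood behind a value. The log2 difference was -0.09 (95% interval -0.43 to 0.24), and it was 0.010 without WT1.

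**Figure D3:**
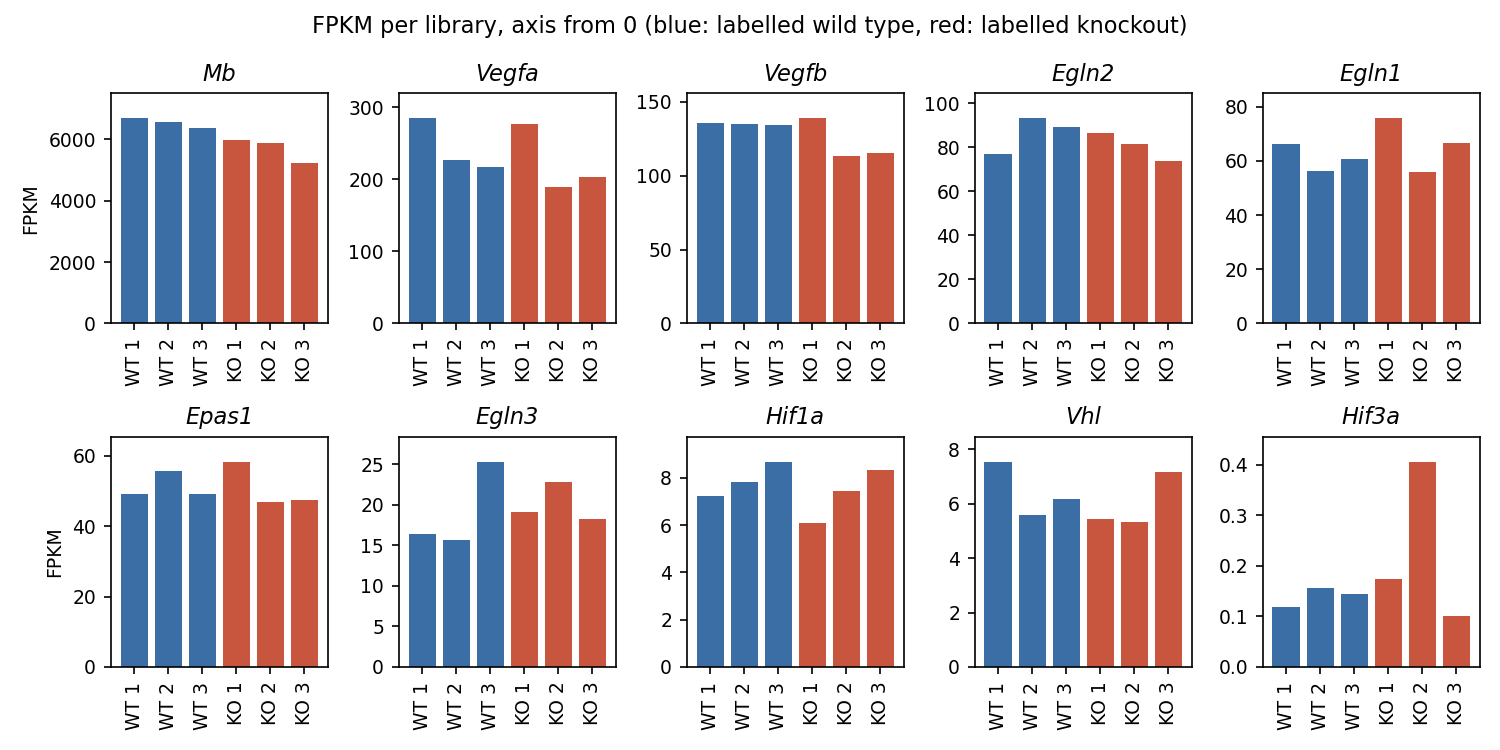
FPKM (y axes, from 0) of each of the 10 genes in each library labelled wild type (WT, blue) and knockout (KO, red), ordered by mean FPKM. Only Mb has all 3 knockout bars below all 3 wild-type bars, and Vegfa is highest in library 1 of both labels.

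Vegfa, the principal ligand for blood vessel growth (chromosome 17, 46016993 to 46032369, minus strand), was the second most abundant of the genes. It was at 285, 227 and 217 FPKM in WT1, WT2 and WT3 and at 277, 189 and 204 FPKM in KO1, KO2 and KO3. Library 1 was the highest under each label, 277 and 285 FPKM, and the other 4 libraries lay between 189 and 227 FPKM. The mean was 243 ± 36.9 and 223 ± 47.3 FPKM (SD, n = 3 each), with a log2 difference of -0.13 (95% interval -0.49 to 0.23). It was -0.0096 without WT1 and -0.30 without KO1. Vegfb, a ligand of the receptor Flt1 linked to fatty acid handling and the coronary vessels (chromosome 19, 6982473 to 6987651, minus strand), measured 135.6, 135.02 and 134.4 FPKM in WT1, WT2 and WT3. In KO1, KO2 and KO3 it was at 138.8, 113 and 115.3 FPKM. The 3 wild-type values were nearly the same, KO1 stood just above them, and the other 2 knockout libraries below them. The log2 difference was -0.15 (95% interval -0.36 to 0.07), and it was -0.24 without KO1. The Vegfb to Vegfa ratio was 0.476 to 0.620 under the wild-type label and 0.501 to 0.599 under the knockout label (exact two-sided permutation p = 0.9, adjusted p = 0.9).

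In order of mean FPKM over the 6 libraries, Mb (6123) was followed by Vegfa (233), Vegfb (128.7), Egln2 (83.5), Egln1 (63.6), Epas1 (51.02), Egln3 (19.6), Hif1a (7.60), Vhl (6.21) and Hif3a (0.183). Neighbours in this order were compared within libraries by an exact two-sided sign-flip test over the 6 libraries, whose smallest p is 0.0312, with adjustment over 9 pairs. Of the pairs, 8 were in the same order in 6 of 6 libraries (exact p = 0.0312, adjusted p = 0.0352 each). Hif1a and Vhl were in this order in 5 of 6 libraries and did not pass (exact p = 0.0625). The pairs and their direction were taken from these same 6 libraries, so the p-values are no independent support for the order. Mb stood 26.5-fold above Vegfa in FPKM and 59.2-fold per longest transcript, and Epas1 stood 2.64-fold above Egln3 (2.54-fold per longest transcript). Egln1 stood only 1.24-fold above Epas1.

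**Figure D4:**
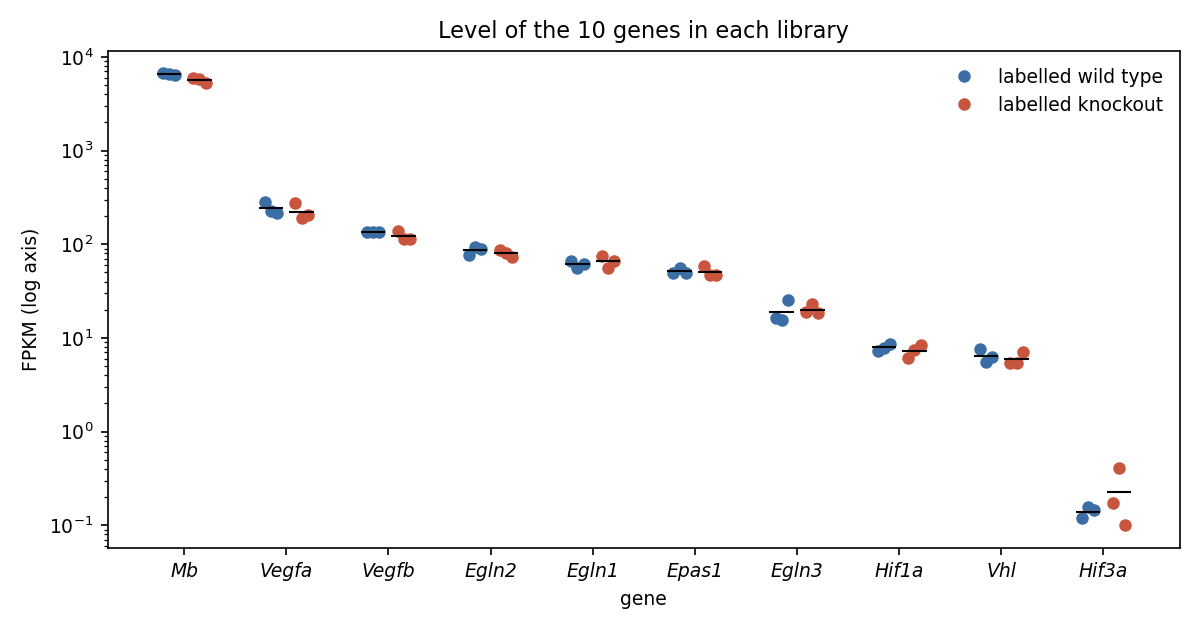
FPKM (y axis, log scale) of the 10 genes (x axis, ordered by mean) in each library labelled wild type (blue) and knockout (red), with black bars for the mean of each label. The genes spread from 0.09998 FPKM for Hif3a to 6689 FPKM for Mb, and the 2 labels lie close together for each gene with more than a few fragments.

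The middle of this order rested on the gene length behind the FPKM. The shortest lengths at which the values give whole fragments were 483 bases for Vegfb, 1189 for Egln2 and 1460 for Vegfa. The longest annotated transcripts of these genes have 1281, 2107 and 3451 bases. For Egln1 and Epas1 the length behind the FPKM was 3515 and 5309 bases, close to their longest transcripts of 3594 and 5516, and for Egln3 both were 2662. Per kilobase of the longest transcript, an alternative chosen after the data were examined, Egln1 (62.2 ± 7.39) stood above Epas1 (49.1 ± 4.54), Vegfb (48.5 ± 4.28) and Egln2 (47.1 ± 4.21, SD over 6 libraries), and the last 3 lay within their spread. Per kilobase of the exon union, also chosen after the data were examined, Epas1 (48.5 ± 4.48) stood above Vegfb (38.7 ± 3.42) and Egln2 (35.5 ± 3.17). The Egln2 to Egln1 ratio was 1.32 as deposited and 0.759 per longest transcript. Mb, Vegfa, Egln3, Hif1a, Vhl and Hif3a kept their ranks, and the Epas1 to Hif1a ratio was 6.74 as deposited and 12.7 per longest transcript. A change of length moves every library alike and leaves the ratios of FPKM between the labels as they are. Differences of log2(FPKM + 1) would change, most for genes at low FPKM, and were not computed per other lengths.

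**Figure D5:**
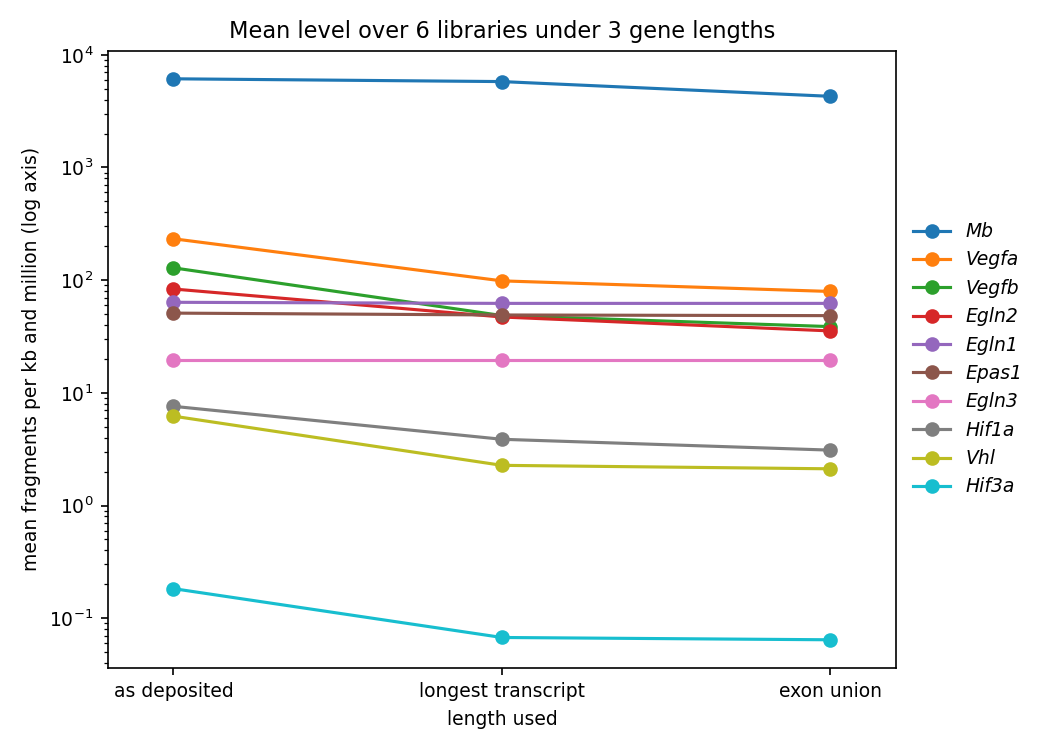
Mean level over the 6 libraries (y axis, fragments scaled by length in kilobases and by library total, log scale) of each gene with the length behind the deposited FPKM, the longest annotated transcript and the exon union (x axis). Lines cross for Vegfb, Egln2, Egln1 and Epas1, and Mb and Vegfa stay the 2 highest.

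None of the partners and regulators of the alpha subunits passed the test. Of the 15 genes of that list 14 were tested (Arnt2 was below the filter) and 0 passed in either direction. Under the knockout label 6 were higher and 8 lower (57.1% lower, against 56.7% of all tested genes). The median log2 difference was -0.01, against -0.02 over all tested genes. Elob and Eloc, the elongins that join Vhl to its ligase, measured 213 ± 22.1 FPKM under the wild-type label against 216 ± 4.19 under the knockout label for Elob, and 131 ± 12.2 against 133 ± 6.86 for Eloc (SD, n = 3 each, and in this order for the genes that follow). Hif1an, the asparagine hydroxylase that blocks the activity of alpha subunits, was at 55.9 ± 4.59 against 53.6 ± 2.98 FPKM. Cited2, which competes with the alpha subunits for a coactivator, had the widest difference, at 23.4 ± 3.69 against 18.7 ± 2.88 FPKM (log2 difference -0.31), followed by the ligase scaffold Cul2 at 23.4 ± 1.06 against 26.1 ± 2.53 FPKM. Cited2 and Cul2 overlapped between the labels. The labels did not overlap for 1 of the 14 tested (7.14%, against 9.48% of all tested genes). It was Siah2, at 6.40 ± 0.340 against 5.87 ± 0.0857 FPKM (log2 difference -0.10).

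None of the genes known to respond to hypoxia passed the test either. Of 45 genes 42 were tested, and 17 were higher and 25 lower under the knockout label (59.5% lower, against 56.7% of all tested genes). In either direction 0 passed, and the median log2 difference was -0.02. An unadjusted p under 0.05 was reached by 3 (Car9 higher, Pgam1 and P4ha1 lower), which is 7.14%, against 4.59% of all tested genes. The labels did not overlap for 3 genes (7.14%, against 9.48%): Car9 and Vldlr were higher and P4ha1 lower under the knockout label. The most abundant were the glycolytic genes Aldoa at 14148 ± 666 against 14446 ± 1141 FPKM, Gapdh at 9184 ± 345 against 9441 ± 255 FPKM and Tpi1 at 3418 ± 136 against 3376 ± 88.5 FPKM. Car9, a carbonic anhydrase used as a hypoxia marker, was at 1.31, 0.970 and 1.06 FPKM in WT1, WT2 and WT3 and at 1.69, 2.47 and 1.52 FPKM in KO1, KO2 and KO3. Its log2 difference was 0.44, with limma adjusted p = 0.988. Pfkfb3, which raises glycolytic flux, was at 14.2, 86.8 and 67.6 FPKM under the wild-type label and at 9.41, 70.5 and 56.7 FPKM under the knockout label. Library 1 of each label was far below the other 4, the same libraries in which Vegfa was highest.

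The other angiogenic genes also stayed short of the test. Of 29 genes 25 were tested, and 9 were higher and 16 lower under the knockout label (64.0% lower, against 56.7% of all tested genes). In either direction 0 passed, and 0 had an unadjusted p under 0.05, against 4.59% of all tested genes. The median log2 difference was -0.11, against -0.02 over all tested genes. That median was -0.025 without WT3, -0.027 without WT2, -0.057 without KO2 and -0.043 over genes whose mean FPKM reached 5. Flt1, the receptor of both Vegfa and Vegfb, was at 41.2 ± 1.45 against 45.5 ± 5.43 FPKM, and the growth factor Fgf1 at 33.3 ± 1.88 against 29.8 ± 2.39 FPKM. Esrra, a nuclear receptor that can drive Vegfa in muscle, was at 148 ± 10.2 against 157 ± 29.1 FPKM. Thbs1 and Adamts1, which restrain vessel growth, had the widest differences, at 3.01 ± 1.86 against 1.69 ± 0.419 FPKM and at 18.5 ± 5.46 against 14.4 ± 5.74 FPKM. Adamts1 was highest in library 1 of both labels (24.3 and 21.0 FPKM), as Vegfa was.

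The haemoglobin genes gave a measure of blood in the samples, and their list also holds the globins Cygb and Ngb, which are not haemoglobin genes. Of the 8 globin and red cell genes 7 were tested and 0 passed. Under the knockout label 1 was higher and 6 lower (85.7% lower, against 56.7% of all tested genes). The median log2 difference was -0.14, which is the value of Cygb, against -0.02 over all tested genes. The most abundant, Hbb-bs, was at 322, 177 and 359 FPKM in WT1, WT2 and WT3 and at 207, 308 and 357 FPKM in KO1, KO2 and KO3, and Hba-a1 at 183 ± 50.5 against 169 ± 43.2 FPKM. The alpha globin copies Hba-a1 and Hba-a2 (169.9 ± 43.1 against 157 ± 35.6 FPKM) are nearly identical, so the split between them is uncertain. Hbb-bs was lowest in WT2, where Mb was among the highest. Any part of blood in the difference of Mb was not tested. The red cell genes with the widest differences were Slc4a1, at 10.04 FPKM in WT3 and at most 0.482 FPKM in the other 5 libraries, and Alas2, at 5.63 ± 1.34 against 4.28 ± 1.003 FPKM.

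The genes whose profile over the 6 libraries was most like that of Mb, by the mean absolute difference of standardised log2(FPKM + 1) among 5288 other genes whose mean FPKM reached 10, were Aebp1 (0.0820 SD units), Mrps12 (0.149) and 1810058I24Rik (0.153). Aebp1 was at 42.0 to 44.2 FPKM under the wild-type label and 26.9 to 35.7 FPKM under the knockout label. For Vegfa, Ythdf2 (0.116) and Dnajb9 (0.119) were among the 3 most alike, and Dnajb9 was highest in library 1 of both labels, at 23.9 and 24.02 FPKM. The likeness is a description over 6 libraries.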

How the data were processed

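The deposited tables hold FPKM per Ensembl gene, 1 per library. The submitters' processing notes name mm10, Cufflinks 2.2.1 and TopHat2 2.1.1. What each did, the annotation, strand setting and filters are not stated in the sources used here. Groups and replicate numbers came from titles, and symbols, positions and transcripts from GENCODE vM21 (mm10); 40452 of 41025 IDs had a symbol.

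FPKM is not a count, so log2(FPKM + 1) was tested with limma 3.58.1 (R 4.3.3, mean-variance trend, mean FPKM of 1 or more, Benjamini-Hochberg). Single values were compared by exact permutation tests. Library totals were recovered from low genes with 1 annotated transcript, where an FPKM value is a whole number of fragments over the length and the total. For each gene the shortest length from 20 to 110000 bases that gave whole fragments in all libraries was then taken (tolerance 0.002 of a fragment). Such a length was found for 100.0% of 23559 genes above 0. Longer lengths can fit as well, and genes seen in few libraries fit easily, so this share does not show that the lengths are right. Poisson intervals cover counting error only, and limma intervals the spread between libraries. In a chi-square comparison over genes with at least 20 fragments, library pairs differed by 7.04 to 23.8 times the sampling noise, so none was taken for a copy.

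The members and lists were chosen with earlier results of these data known. Named genes were the 10 members and, per list, the 3 most abundant tested genes and the 2 with the widest difference, plus the 3 genes most like Mb and Vegfa, of which 1 is not reported here; Pgam1, P4ha1 and Vldlr were named after their values were seen. Alternatives were median centring, quantile normalization, pseudocounts of 0.1 and 0.01, other filters, a replicate block, no trend, library weights, limma voom on fragments, leaving out each library, and other gene lengths. Overlaps with other genes were looked up for the members and Mettl21e only. Other scripts ran in Python 3.11.15.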

Additional observations from a re-analysis of the deposited data

How the results depend on the processing

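None of the 9 tested genes passed the adjusted test under any of the 16 alternatives (smallest limma adjusted p = 0.379), and 137 of 144 values kept their direction. Of the 7 that turned, Epas1 was at 0.031 with median-centred libraries and 0.0036 with quantile normalization, and leaving out a library gave -0.12 to 0.041 for Epas1, -0.21 to 0.010 for Vhl and -0.031 to 0.30 for Egln3. Over all genes, 0 passed under every setting that kept all libraries and 0 to 3 with 1 library left out (1 without WT1, 1 without KO3 and 3 without WT3). The count at an unadjusted p under 0.05 was 523, and 1413 with library weights, 339 at a mean of at least 5 FPKM, 987 with no filter (other numbers of genes tested) and 342 to 1356 with 1 library left out (342 without KO2, 344 without WT3, 1356 without WT1); the cause of the other shifts was not tested.

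No pairing by replicate number showed over all tested genes: deviations of same-numbered libraries from their label means correlated at 0.0236, -0.0408 and 0.0232. Libraries of unlike number correlated at -0.0523 to 0.032. Single genes such as Vegfa, Pfkfb3 and Adamts1 did stand apart in library 1 of both labels, and whether the libraries were handled in pairs was not tested. With the replicate number as a block, 0 genes passed, 472 had an unadjusted p under 0.05 and Mb differed by -0.20 (adjusted p = 0.993). Of the 9 neighbours in the order of levels, 8 kept their order per exon union and 8 per longest transcript, because those lengths differ from the ones behind the FPKM, and 9 with any library left out. Leaving out 1 library gave log2 differences of -0.12 to 0.26 for the Epas1 to Hif1a ratio, -0.35 to -0.092 for Egln2 to Egln1, 0.083 to 1.18 for Hif3a to Hif1a, -0.22 to 0.21 for Egln3 to Egln1 and -0.13 to 0.057 for Vegfb to Vegfa, -0.189 to 0.885 FPKM for Mettl21e, and list medians of -0.022 to 0.011 for HIF partners, -0.045 to 0.0092 for hypoxia-responsive genes, -0.17 to -0.025 for angiogenic genes and -0.35 to 0.0076 for globins and red cell genes. Depth limits Hif3a, at 2 to 10 fragments, and Vhl, at 54 to 83.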
